A study of Mus musculus with 12 samples.

Results

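The genes described here encode the protein import machinery of mitochondria and the CHCHD proteins, named for a domain built on paired cysteines. They were chosen by name, as all gene symbols of the count tables that begin with Timm, Tomm or Chchd followed by a digit or the letter d. The rule found 34 genes among 24421, and 31 of them had enough counts to be tested, as did 12252 genes in all. The libraries came from cardiomyocytes of CD1 mice at postnatal day 1, sorted by a YFP reporter and by Mitotracker, a dye for mitochondrial content. There were 4 groups, namely Glut1 transgenic Tnnt2low and Glut1 transgenic Tnnt2high (n = 4 libraries each), and WT Tnnt2low and WT Tnnt2high (n = 2 libraries each). The labels give the sorted cells as high or low in Mitotracker, and Mitotracker high was read as Tnnt2low and Mitotracker low as Tnnt2high, the pairing of the study. Glut1 transgenic hearts carried aMHC-hGLUT1, a human glucose transporter under the cardiomyocyte promoter of alpha myosin heavy chain, with aMHC-Cre and the R26 YFP reporter. The WT label names no allele, but the study's methods give the controls the same Cre and reporter, so that all groups share both. The Cre and the transporter are driven by this 1 promoter, which is active in cardiomyocytes. The label of the extraction speaks of dissected heart tissue, whereas the study's methods describe sorted cells. Each Glut1 transgenic heart gave 1 library of either population, while both WT replicates carry heart number 9 in their labels and may come from 1 heart. With WT replicates that may share a heart, p-values that involve WT may measure only the spread between libraries.

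Nearly all mitochondrial proteins are made in the cytosol and enter through the TOM complex of the outer membrane, whose channel is TOMM40. From there the TIM23 complex and its motor pull proteins with a presequence into the matrix, the small TIM chaperones guide hydrophobic proteins across the intermembrane space to TIM22, and the disulfide relay of CHCHD4 traps small cysteine-rich proteins by oxidation. The small TIMs and the other CHCHD proteins are themselves clients of that relay, and CHCHD3 and CHCHD6 belong to MICOS, the complex that shapes the cristae. Heart muscle is rich in mitochondria, and the cardiomyocytes of newborn mice build up this organelle as they mature.

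Reads assigned to genes numbered 4065306 to 9815069 per library. Depth differed between the Glut1 transgenic populations without overlap, at 7301762 to 9815069 reads in Tnnt2low, against 4065306 to 5241475 reads in Tnnt2high libraries. WT Tnnt2low libraries had 6399746 to 6803962 reads, against 4975085 to 7483520 in WT Tnnt2high libraries, and these ranges overlapped. The part of depth in the population differences was not tested. Summed levels of 10 cardiomyocyte markers were 126227 to 158384 CPM in Glut1 transgenic Tnnt2low, 137704 to 146548 CPM in Glut1 transgenic Tnnt2high, 141099 to 160966 CPM in WT Tnnt2low and 146848 to 154535 CPM in WT Tnnt2high libraries. In Glut1 transgenic Tnnt2low cells 3 of the 10 were called lower and 1 higher (edgeR adjusted p under 0.05), where 8.33% and 8.42% of all genes were. There 6 of the 10 had a negative log2 fold change, with a median of -0.35. In WT hearts 0 were called and 7 were negative, with a median of -0.06. CPM are counts scaled to the library's reads in genes after TMM normalization. Tnnt2, the gene the populations are named for, lay at 12661 to 13976 CPM in Glut1 transgenic Tnnt2low, against 16086 to 20830 CPM in Glut1 transgenic Tnnt2high libraries, and at 15741 to 16731 CPM in WT Tnnt2low, against 16254 to 17201 CPM in WT Tnnt2high libraries. The Tnnt2 ranges thus were apart in Glut1 transgenic hearts and overlapped in WT hearts. Mouse Slc2a1, the counterpart of the transgene, had 44.9 to 92.3 and 33.5 to 92.5 CPM in Glut1 transgenic Tnnt2low and Tnnt2high libraries, against 15.9 to 27.7 and 13.3 to 28.9 CPM in the WT libraries of the same populations. Endothelial markers (8 genes) summed to 8.99 to 78.5 CPM in Glut1 transgenic Tnnt2low, against 29.5 to 242.8 CPM in Glut1 transgenic Tnnt2high libraries, and to 13.3 to 85.8 CPM in WT Tnnt2low, against 15.5 to 333 CPM in WT Tnnt2high libraries. Fibroblast markers (8 genes) summed to 46.4 to 99.8 CPM in Glut1 transgenic Tnnt2low, against 149 to 898 CPM in Glut1 transgenic Tnnt2high libraries, and to 107 to 152 CPM in WT Tnnt2low, against 103 to 465 CPM in WT Tnnt2high libraries. Of these fibroblast markers 5 of 8 passed the test as lower in Glut1 transgenic Tnnt2low cells, where 8.33% of all genes did. All 8 were negative there, with a median log2 fold change of -2.65. Of the endothelial markers 0 of 8 passed, but all 8 were negative, with a median of -2.23. At an edgeR unadjusted p under 0.05, 5 of these 8 were lower, where 15.3% of all genes were. In WT hearts 8 of 8 endothelial (median -1.53) and 7 of 8 fibroblast markers (median -1.21) were negative. The sums of smooth muscle and pericyte markers (6 genes) ran the other way in both genotypes. They were 626 to 688 CPM in Glut1 transgenic Tnnt2low, against 445 to 539.8 CPM in Glut1 transgenic Tnnt2high libraries. In WT hearts they were 624 to 649 CPM in Tnnt2low, against 576 to 611 CPM in Tnnt2high libraries. Of the 5 that were tested, 2 passed as higher and 1 as lower in Glut1 transgenic Tnnt2low cells. Yet 3 of these 5 had a negative log2 fold change there, with a median of -1.99. In WT hearts 3 of the 5 were negative too, with a median of -0.34. Leukocyte markers (6 genes) reached at most 7.67 CPM in any library. The part of these other cells in the results was not tested.

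On mm10, by the GENCODE vM21 annotation, the members that the results turn on lie at chr10:75933130-75937747 (Chchd10), chr6:32790976-33060260 (Chchd3), chr7:105640056-105643637 (Timm10b), chr10:80899450-80900969 (Timm13), chr17:47686646-47688386 (Tomm6) and chr5:23838944-23844161 (Tomm7). Reads were counted over all exons of a gene, untranslated parts included. The promoters of 3 members are shown here because these genes fell in the same comparison below and share a motif within their windows. Of the 34 members, 29 had an entry among the RefSeq promoters on GRCm38.p6, the build that UCSC calls mm10, each running from 250 bases before to 50 bases after the annotated start. Capitals mark CCGGAAGT, the core that ETS factors bind, or the same letters read on the other strand, ACTTCCGG.
Timm10b (chr7:105640195-105640494, plus strand): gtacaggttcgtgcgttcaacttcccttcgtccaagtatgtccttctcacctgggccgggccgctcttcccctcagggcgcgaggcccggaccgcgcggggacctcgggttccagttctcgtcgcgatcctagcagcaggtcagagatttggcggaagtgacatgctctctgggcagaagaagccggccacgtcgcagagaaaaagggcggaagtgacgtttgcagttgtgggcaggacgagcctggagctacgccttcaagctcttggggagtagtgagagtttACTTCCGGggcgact
Timm10 (chr2:84826771-84827070, plus strand): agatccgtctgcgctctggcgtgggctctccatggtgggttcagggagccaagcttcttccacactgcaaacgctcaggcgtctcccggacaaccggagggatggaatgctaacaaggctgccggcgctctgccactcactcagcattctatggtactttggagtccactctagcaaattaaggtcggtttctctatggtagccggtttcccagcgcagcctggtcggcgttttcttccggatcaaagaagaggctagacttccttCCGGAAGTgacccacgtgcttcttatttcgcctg
Timmdc1 (chr16:38522614-38522913, minus strand): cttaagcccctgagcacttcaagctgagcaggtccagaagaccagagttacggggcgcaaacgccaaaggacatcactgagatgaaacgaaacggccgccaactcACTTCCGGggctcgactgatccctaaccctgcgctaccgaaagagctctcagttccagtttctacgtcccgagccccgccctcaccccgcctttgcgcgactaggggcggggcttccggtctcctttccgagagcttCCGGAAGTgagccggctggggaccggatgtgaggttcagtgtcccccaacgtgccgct
These letters stood in 7 of the 29 member promoters (24.1%), searched on both strands, and in 1164 of all 27025 RefSeq promoters (4.31%). Among tested genes with a promoter entry they stood in 6 of 26 members (23.1%) and in 917 of 9729 genes (9.43%), and among the members called lower below in 3 of 14. The promoters of Chchd5, Timm23 and Tomm70a, which were tested and not called, held these letters too, as did that of Timm8a2, which was not tested. A link between the letters and the falls was not tested. Letters of the site of the respiratory factor NRF1, GCATGCGC, stood in 1 member promoter, that of Timm13, and in 3.05% of all, and the YY1 core AAGATGGC stood in 1 member promoter, that of Timm50, and in 3.19% of all. A match is a run of letters in the window and no evidence of binding.

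The comparison of Tnnt2low with Tnnt2high cells of Glut1 transgenic hearts asks whether the import machinery differs between the 2 populations that the study sorted. Of the 31 members tested, 17 fell in Glut1 transgenic Tnnt2low cells and 0 rose, at an edgeR adjusted p under 0.05 over all genes. Over all 12252 genes, 8.33% were called lower and 8.42% higher. At an unadjusted p under 0.05, 20 members were lower and 0 higher, where 15.3% and 15.7% of all genes were. All tested members but Tomm34 had a negative log2 fold change (30 of 31, against 50.4% of all genes), and their median was -0.66, against -0.01 for all genes. The groups did not overlap, with every Glut1 transgenic Tnnt2low library below every Tnnt2high library, for 13 of the 31 members, against 10.9% of all genes. In 19 of the 31 members the level was lower in the Tnnt2low library of every Glut1 transgenic heart, against 19.1% of all genes. The libraries are bulk samples of sorted cells, so that less RNA of a gene per cell and fewer cells with that RNA cannot be told apart.

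Among the 8 TOM subunits 3 fell. The largest of these falls was that of Tomm6, a small subunit that stabilises the complex, with 66.2, 67.01, 58.1 and 73.9 CPM in Glut1 transgenic Tnnt2low libraries, against 104, 137, 118 and 112 CPM in Glut1 transgenic Tnnt2high libraries. The groups did not overlap, and the difference was -0.83 on the log2 scale (SE 0.14, edgeR adjusted p = 0.00305). Tomm6 shares 86.4% of its 30-base words with genes that overlap it, so that its counts are uncertain. Tomm7, another small subunit, had 106, 95.9, 105 and 85.4 CPM in Glut1 transgenic Tnnt2low, against 143, 254, 129 and 138 CPM in Glut1 transgenic Tnnt2high libraries. All 4 Tnnt2low values were below the 4 Tnnt2high values, of which replicate 2 was far above the rest, and the difference was -0.76 on the log2 scale (SE 0.19, edgeR adjusted p = 0.0142). Tomm40, which forms the channel, had 101, 132, 108 and 93.8 CPM in Glut1 transgenic Tnnt2low, against 141, 159.6, 141 and 145 CPM in Glut1 transgenic Tnnt2high libraries. The difference was smaller, -0.43 on the log2 scale (SE 0.13, edgeR adjusted p = 0.0325), again with no overlap. An antisense gene shares 12.3% of its words, and the strand setting of the counting is not known here.

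The receptors of the TOM complex did not pass the test. Tomm70a, the receptor of carrier proteins, had 129, 141, 129.8 and 124 CPM in Glut1 transgenic Tnnt2low and 125, 141, 157 and 140.5 CPM in Glut1 transgenic Tnnt2high libraries. Its libraries overlapped, and with -0.11 on the log2 scale (SE 0.11, edgeR adjusted p = 0.569) it had the smallest spread between replicates of all members. Tomm20, the receptor of presequences, had 78.1, 29.1, 16.2 and 17.1 CPM in Glut1 transgenic Tnnt2low and 58.3, 147, 22.8 and 44.4 CPM in Glut1 transgenic Tnnt2high libraries. Values ranged so widely within either group that a difference of -0.94 on the log2 scale (SE 0.60, edgeR adjusted p = 0.309) could not be told from the spread. Tomm22, the central receptor, had a difference of -0.49 on the log2 scale (SE 0.18, edgeR adjusted p = 0.0713), Tomm5 one of -0.72 (adjusted p = 0.177) and Tomm40l, a second form of the channel, one of -0.17 (adjusted p = 0.464). With the heart as a block in the fit, Tomm22 was called (edgeR adjusted p = 0.0449).

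**Figure D1:**
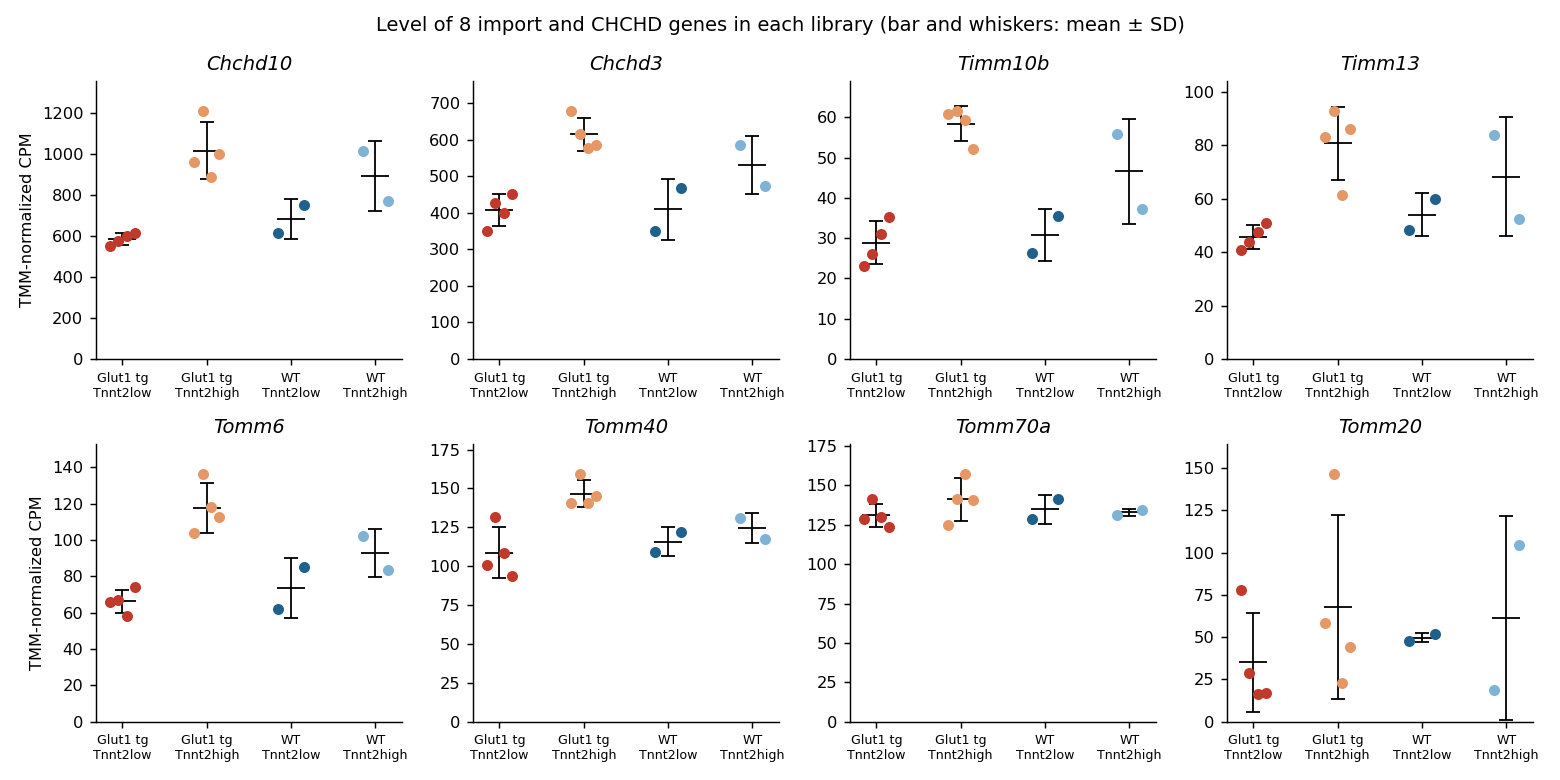
TMM-normalized CPM of 8 members in each of the 12 libraries, with the mean and SD of each group and every axis starting at 0. Chchd10, Chchd3, Timm10b, Timm13, Tomm6 and Tomm40 are lower in all 4 Glut1 transgenic Tnnt2low than in all 4 Tnnt2high libraries, while Tomm70a overlaps and Tomm20 spreads widely within groups.

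Of the 6 TIM23 members 3 fell. Timm44, which tethers the import motor to the channel, had 183, 190.4, 195 and 226 CPM in Glut1 transgenic Tnnt2low, against 237, 284, 251 and 307 CPM in Glut1 transgenic Tnnt2high libraries. The groups did not overlap, and the difference of -0.44 on the log2 scale (SE 0.12, edgeR adjusted p = 0.0214) was small but tight. Timm17a, a channel subunit, had 42.9, 52.98, 52.3 and 59.5 CPM in Glut1 transgenic Tnnt2low, against 117, 76.9, 61.7 and 64.5 CPM in Glut1 transgenic Tnnt2high libraries. Its groups were also apart, by -0.63 on the log2 scale (SE 0.19, edgeR adjusted p = 0.0381), and it was no longer called with the heart as a block (edgeR adjusted p = 0.0611). Timm21, which links the complex to TOM, had 17.97, 20.4, 19.4 and 22.3 CPM in Glut1 transgenic Tnnt2low, against 38.1, 39.4, 16.4 and 45.1 CPM in Glut1 transgenic Tnnt2high libraries. Replicate 3 of the Tnnt2high group lay below all Tnnt2low libraries, so that heart 5 went against the other 3, and the difference was -0.80 on the log2 scale (SE 0.25, edgeR adjusted p = 0.0396). Timm17a (6.15%) and Timm21 (10.1%) share words with genes elsewhere, so that their counts are uncertain.

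Timm23, the channel itself, had few counts. It had 2.68, 3.37, 3.93 and 5.63 CPM in Glut1 transgenic Tnnt2low and 4.04, 3.83, 5.46 and 6.41 CPM in Glut1 transgenic Tnnt2high libraries, and 88.7% of its 30-base words also occur in genes elsewhere, Gm10273 foremost. The libraries overlapped, and the difference was -0.34 on the log2 scale (SE 0.40, edgeR adjusted p = 0.608). Timm50, the presequence receptor of the complex, had 38.3, 40.5, 38.5 and 36.5 CPM in Glut1 transgenic Tnnt2low, against 42.6, 47.9, 43.1 and 58.1 CPM in Glut1 transgenic Tnnt2high libraries. Its groups did not overlap, yet at -0.32 on the log2 scale (SE 0.15, edgeR adjusted p = 0.171) it was not called. Timm17b, the second form of Timm17a, differed by -0.34 (edgeR adjusted p = 0.305).

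Of the 7 tested members of TIM22 and the small TIMs 4 fell, with the largest falls among the small TIMs. Timm10b, the small TIM that sits on the TIM22 complex, had 23.1, 26.2, 30.96 and 35.2 CPM in Glut1 transgenic Tnnt2low, against 60.7, 61.6, 59.3 and 52.2 CPM in Glut1 transgenic Tnnt2high libraries. The 2 ranges were far apart, and the difference was -1.02 on the log2 scale (SE 0.18, edgeR adjusted p = 0.00303), a level 0.493 times that of Tnnt2high cells. Overlapping genes hold 20.5% of its words. Timm13, a partner of Timm8 proteins in a chaperone ring, had 40.6, 43.8, 47.5 and 50.9 CPM in Glut1 transgenic Tnnt2low, against 83.1, 92.8, 61.2 and 85.9 CPM in Glut1 transgenic Tnnt2high libraries. All Tnnt2low libraries were below all Tnnt2high libraries, and the difference was -0.82 on the log2 scale (SE 0.17, edgeR adjusted p = 0.00669). Timm8b had 35.9, 42.8, 33.00 and 48.6 CPM in Glut1 transgenic Tnnt2low, against 84.6, 67.9, 65.2 and 64.5 CPM in Glut1 transgenic Tnnt2high libraries, with no overlap and a difference of -0.82 on the log2 scale (SE 0.20, edgeR adjusted p = 0.0139). Overlapping genes share 10.6% of its words. Timm10, which forms the other chaperone ring with Timm9, had 22.7, 22.4, 31.6 and 37.7 CPM in Glut1 transgenic Tnnt2low, against 53.9, 38.1, 42.7 and 45.3 CPM in Glut1 transgenic Tnnt2high libraries. Those libraries came close to each other without overlapping, and the difference was -0.66 on the log2 scale (SE 0.19, edgeR adjusted p = 0.0334).

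Timm9, the partner of Timm10, was not called. It had 12.2, 16.1, 18.7 and 35.7 CPM in Glut1 transgenic Tnnt2low and 26.4, 34.2, 13.1 and 28.5 CPM in Glut1 transgenic Tnnt2high libraries, which overlapped widely. The difference of -0.31 on the log2 scale (SE 0.32, edgeR adjusted p = 0.559) was less than its standard error, and the difference between the 2 genes was not tested. Timm22, the carrier translocase, had 17.3, 21.6, 21.6 and 35.05 CPM in Glut1 transgenic Tnnt2low and 30.9, 39.4, 37.7 and 34.9 CPM in Glut1 transgenic Tnnt2high libraries. Replicate 4 of the Tnnt2low group lay among the Tnnt2high libraries, and the difference of -0.58 on the log2 scale (SE 0.21, edgeR adjusted p = 0.0739) missed the threshold, though it passed with the heart as a block (edgeR adjusted p = 0.0428). Timm8a1, the gene whose human counterpart is mutated in a deafness and dystonia syndrome, had 0.956, 15.9, 2.03 and 0.256 CPM in Glut1 transgenic Tnnt2low and 0.404, 3.01, 2.73 and 46.98 CPM in Glut1 transgenic Tnnt2high libraries. These values jump by more than an order of magnitude between replicates of 1 group, 41.9% of its words also occur elsewhere, and its difference of -1.46 on the log2 scale (SE 1.26, edgeR adjusted p = 0.472) says little. Timm8a2 was not tested, with at most 0.15 CPM in any library.

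The CHCHD genes held the most calls, 6 of 8. Chchd10, an intermembrane space protein whose human counterpart is mutated in motor neuron and muscle disease, had 552, 575, 603 and 614 CPM in Glut1 transgenic Tnnt2low, against 964, 1211, 887 and 1000.4 CPM in Glut1 transgenic Tnnt2high libraries. The gap between the groups was several times the spread within the Tnnt2low libraries, and the difference was -0.79 on the log2 scale (SE 0.12, edgeR adjusted p = 0.00198), the smallest p of all members. Overlapping genes share 8.77% of its words. Chchd3, a core MICOS subunit, had 351, 426, 399 and 452 CPM in Glut1 transgenic Tnnt2low, against 679, 616, 576 and 587 CPM in Glut1 transgenic Tnnt2high libraries. The groups were apart by a wide gap, and the difference was -0.59 on the log2 scale (SE 0.12, edgeR adjusted p = 0.00634). Chchd6, its MICOS partner, had 6.79, 9.88, 6.73 and 6.78 CPM in Glut1 transgenic Tnnt2low, against 18.2, 20.8, 20.3 and 9.02 CPM in Glut1 transgenic Tnnt2high libraries. This was the largest fall among called members, -1.18 on the log2 scale (SE 0.29, edgeR adjusted p = 0.0143), although replicate 2 of the Tnnt2low group lay above replicate 4 of the Tnnt2high group.

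Chchd4, the oxidoreductase of the disulfide relay, had 25.3, 31.9, 32.2 and 26.6 CPM in Glut1 transgenic Tnnt2low, against 39.96, 43.5, 53.3 and 31.3 CPM in Glut1 transgenic Tnnt2high libraries. The ranges overlapped by 1 library of the Tnnt2high group, and the difference was -0.53 on the log2 scale (SE 0.17, edgeR adjusted p = 0.0455), the weakest of the 17 calls. Chchd1, which is also a subunit of the mitochondrial ribosome, had 39.1, 37.6, 37.8 and 62.9 CPM in Glut1 transgenic Tnnt2low, against 82.5, 84.1, 78.9 and 51.01 CPM in Glut1 transgenic Tnnt2high libraries. Replicate 4 stood apart in both groups, high among the Tnnt2low and low among the Tnnt2high libraries, so that heart 8 went against the other 3 hearts, and the difference was -0.74 on the log2 scale (SE 0.20, edgeR adjusted p = 0.0234). Chchd7, a twin CX9C protein, had 38.3, 49.3, 42.6 and 59.6 CPM in Glut1 transgenic Tnnt2low, against 106, 93.1, 60.01 and 68.3 CPM in Glut1 transgenic Tnnt2high libraries. The highest Tnnt2low library almost reached the lowest Tnnt2high library, and the difference was -0.79 on the log2 scale (SE 0.20, edgeR adjusted p = 0.0161).

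Chchd2 and Chchd5 were not called. Chchd2, the close relative of Chchd10, had 228, 113, 129 and 270.0 CPM in Glut1 transgenic Tnnt2low and 381, 473, 115 and 305 CPM in Glut1 transgenic Tnnt2high libraries. It differed by as much as its relative, -0.79 on the log2 scale (SE 0.37, edgeR adjusted p = 0.158), but with a far larger standard error, and 54.1% of its words also occur elsewhere. Chchd5 had 4.49, 5.95, 10.53 and 6.40 CPM in Glut1 transgenic Tnnt2low and 10.3, 4.11, 4.46 and 9.02 CPM in Glut1 transgenic Tnnt2high libraries. They overlapped widely, and the difference was -0.04 on the log2 scale (SE 0.43, edgeR adjusted p = 0.966).

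Of the members outside these complexes, Timmdc1, an assembly factor of respiratory complex I, had 62.8, 88.3, 65.99 and 105 CPM in Glut1 transgenic Tnnt2low, against 82.9, 143, 147 and 156 CPM in Glut1 transgenic Tnnt2high libraries. Replicate 1 of the Tnnt2high group lay within the Tnnt2low range, and the difference was -0.71 on the log2 scale (SE 0.20, edgeR adjusted p = 0.0274). Timmdc1 shares 7.77% of its words with genes elsewhere. Tomm34, a cytosolic chaperone partner that is no part of the TOM complex, had a difference of 0.08 on the log2 scale (SE 0.21, edgeR adjusted p = 0.846). Tomm20l and Tomm6os were not tested, with at most 1.43 CPM in any library.

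**Figure D2:**
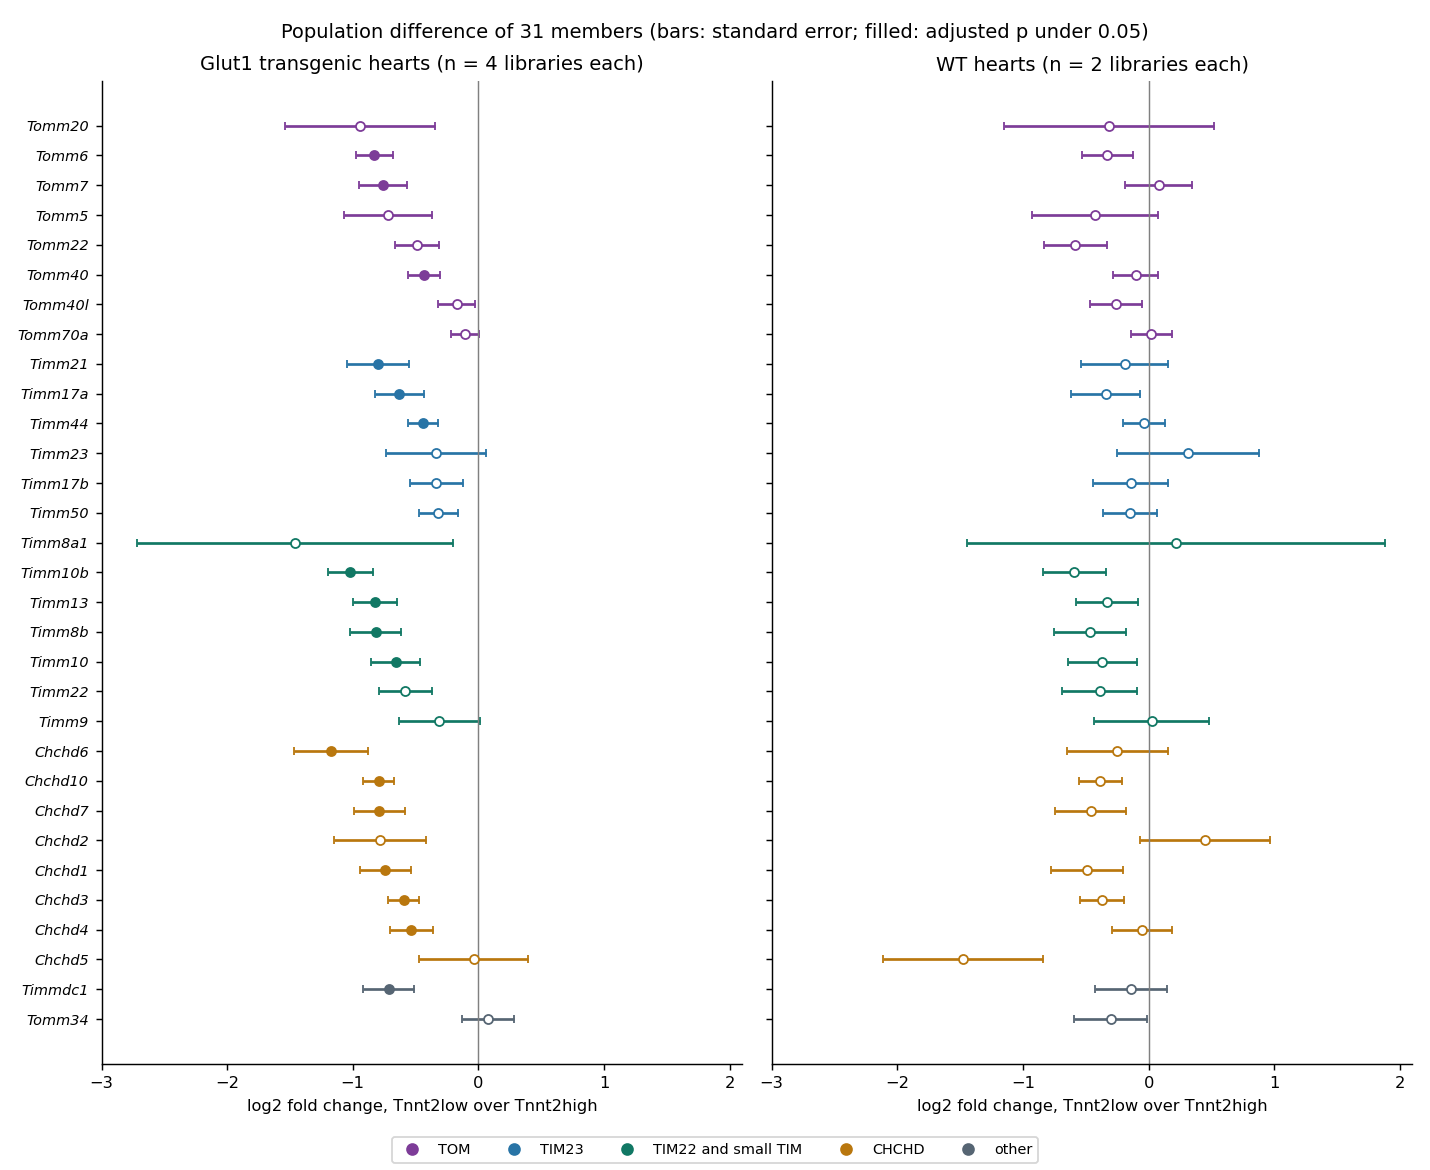
Log2 fold change of Tnnt2low over Tnnt2high cells for the 31 tested members, grouped by complex, in Glut1 transgenic hearts on the left and WT hearts on the right, with bars for the standard error and filled points for an edgeR adjusted p under 0.05. In Glut1 transgenic hearts 30 of 31 members lie left of 0 and 17 are filled, and in WT hearts 25 lie left of 0 and 0 are filled.

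The same comparison in WT hearts gave 0 called members, and 0 of all 12252 genes were called by edgeR (0%). At an unadjusted p under 0.05, 4 members were lower and 0 higher, where 1.91% and 1.2% of all genes were. DESeq2 called 0 members, where it called 0.0118% of genes lower and 0.00592% higher. Of the 31 members 25 had a negative log2 fold change, and the median was -0.30, against a median near 0 for all genes, of which 50.1% were negative. Without overlap, 12 of the 31 members were lower and 1 was higher in Tnnt2low cells, against 14.9% and 15.3% of all genes. In both pairs of libraries 13 of the 31 members were lower, against 25% of all genes.

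The 3 WT differences with the smallest p were those of Timm10b, Tomm22 and Chchd5. Timm10b had 26.2 and 35.4 CPM in WT Tnnt2low, against 55.8 and 37.3 CPM in WT Tnnt2high libraries, a difference of -0.59 on the log2 scale (SE 0.25, edgeR adjusted p = 1). Tomm22 had 39.01 and 39.8 CPM in WT Tnnt2low, against 68.2 and 50.1 CPM in WT Tnnt2high libraries, a difference of -0.58 on the log2 scale (SE 0.25, edgeR adjusted p = 1). Chchd5 had 2.83 and 2.84 CPM in WT Tnnt2low, against 12.02 and 4.04 CPM in WT Tnnt2high libraries, a difference of -1.48 on the log2 scale (SE 0.64, edgeR adjusted p = 1) with Tnnt2high replicate 1 far above the other 3 libraries. In each gene the Tnnt2high replicate 1 was the highest WT library.

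The 2 WT pairs differed from each other. Chchd10 had 613 and 753 CPM in WT Tnnt2low, against 1013 and 770.2 CPM in WT Tnnt2high libraries. Chchd3 had 350.4 and 468 CPM in WT Tnnt2low, against 586 and 474 CPM in WT Tnnt2high libraries. Within pair 1 both genes were clearly lower in Tnnt2low cells, and within pair 2 the values nearly coincided. Timm13 had 48.4 and 59.7 CPM in WT Tnnt2low, against 83.9 and 52.5 CPM in WT Tnnt2high libraries. Tomm6 had 62.1 and 85.2 CPM in WT Tnnt2low, against 102 and 83.3 CPM in WT Tnnt2high libraries. For these 2 genes pair 2 ran slightly the other way. Across members the median deviation from each member's own mean was -0.23 and -0.05 on the log2 scale in the WT Tnnt2low libraries, against 0.27 and -0.04 in the WT Tnnt2high libraries, so that replicate 1 carried most of the WT difference. Without WT Tnnt2high replicate 1 the WT median of the members was -0.074, and without WT Tnnt2high replicate 2 it was -0.45.

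The other called members were also not called in WT cells. Timm44 had 238 and 217 CPM in WT Tnnt2low, against 245 and 221 CPM in WT Tnnt2high libraries. Tomm40 had 109 and 122 CPM in WT Tnnt2low, against 131 and 118 CPM in WT Tnnt2high libraries. Tomm7 had 155 and 150.3 CPM in WT Tnnt2low, against 157 and 132 CPM in WT Tnnt2high libraries. The ranges of these 3 genes overlapped. Chchd4 had 34.2 and 35.9 CPM in WT Tnnt2low, against 37.1 and 35.7 CPM in WT Tnnt2high libraries. Timm10 had 32.6 and 31.9 CPM in WT Tnnt2low, against 48.3 and 35.1 CPM in WT Tnnt2high libraries. Timm8b had 28.9 and 48.8 CPM in WT Tnnt2low, against 66.8 and 40.8 CPM in WT Tnnt2high libraries. Of these, Timm10 alone had WT groups that did not overlap. Chchd1 had 39.6 and 49.7 CPM in WT Tnnt2low, against 69.9 and 55.9 CPM in WT Tnnt2high libraries. Chchd6 had 9.98 and 15.4 CPM in WT Tnnt2low, against 17.3 and 12.9 CPM in WT Tnnt2high libraries. Chchd7 had 37.97 and 54.7 CPM in WT Tnnt2low, against 68.6 and 59.1 CPM in WT Tnnt2high libraries. The groups were apart for Chchd1 and Chchd7 and overlapped for Chchd6. Timm17a had 47.9 and 53.1 CPM in WT Tnnt2low, against 71.1 and 57.1 CPM in WT Tnnt2high libraries. Timm21 had 24.4 and 28.6 CPM in WT Tnnt2low, against 33.2 and 27.3 CPM in WT Tnnt2high libraries. Timmdc1 had 96.5 and 98.4 CPM in WT Tnnt2low, against 117 and 98.1 CPM in WT Tnnt2high libraries. Timm17a alone of these 3 did not overlap.

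The defining members that were not called in Glut1 transgenic hearts were not called in WT hearts. Tomm70a had 128 and 141 CPM in WT Tnnt2low, against 131 and 134 CPM in WT Tnnt2high libraries. Tomm20 had 47.8 and 51.7 CPM in WT Tnnt2low, against 18.7 and 104 CPM in WT Tnnt2high libraries. Tomm70a was nearly level across these libraries and Tomm20 was not. Timm23 had 4.91 and 3.89 CPM in WT Tnnt2low, against 3.87 and 3.23 CPM in WT Tnnt2high libraries. Timm50 had 43.8 and 39.03 CPM in WT Tnnt2low, against 53.98 and 38.2 CPM in WT Tnnt2high libraries. Timm22 had 25.8 and 26.02 CPM in WT Tnnt2low, against 39.5 and 28.5 CPM in WT Tnnt2high libraries. The WT groups were apart for Timm22, lower in Tnnt2low cells, and for Timm23, higher in them. Timm9 had 16.98 and 18.1 CPM in WT Tnnt2low, against 16.3 and 18.2 CPM in WT Tnnt2high libraries. Chchd2 had 135 and 238 CPM in WT Tnnt2low, against 169 and 106 CPM in WT Tnnt2high libraries. Timm9, Chchd2 and Timm50 overlapped between the WT groups.

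Whether the population difference depends on the genotype was tested as an interaction, in which the WT difference is subtracted from the Glut1 transgenic one. No member was called (0 of 31, with 0% of all genes called by edgeR), 1 member was lower and 0 higher at an unadjusted p under 0.05 (2.2% and 2.32% of all genes). DESeq2 called 0 members, where it called 0.0178% of genes lower and 0.0118% higher. The interaction was negative in 27 of 31 members with a median of -0.33, against 0.01 for all genes, of which 48.8% were negative. The smallest p belonged to Tomm7 (-0.84, SE 0.33, edgeR unadjusted p = 0.0212, adjusted p = 0.961), which was lower in Tnnt2low cells of all 4 Glut1 transgenic hearts but of only 1 WT pair. Tomm6 followed with -0.50 on the log2 scale (SE 0.25, edgeR adjusted p = 0.961) and Timm44 with -0.41 on the log2 scale (SE 0.21, edgeR adjusted p = 0.961). A fall called in Glut1 transgenic hearts and not in WT hearts was thus not shown to differ between the genotypes.

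The effect of the transgene within Tnnt2low cells was tested against the WT Tnnt2low libraries. No member was called (0 of 31), and 0.00816% of all genes (1 gene) were called by edgeR. At an unadjusted p under 0.05, 1 member was higher and 2 were lower, where 0.93% and 1.16% of all genes were. DESeq2 called 0 members, where it called 0.0118% of genes lower and 0.0237% higher. Of the members 22 were negative, against 49.5% of all genes, and their median was -0.10, against a median near 0 for all genes. Tomm7 had 106, 95.9, 105 and 85.4 CPM in Glut1 transgenic Tnnt2low, against 155 and 150.3 CPM in WT Tnnt2low libraries. All transgenic values were below both WT values, and the difference was -0.64 on the log2 scale (SE 0.22, edgeR adjusted p = 1). Chchd6 was also lower in every Glut1 transgenic Tnnt2low library than in the WT Tnnt2low libraries, at -0.75 (SE 0.35, edgeR adjusted p = 1). Chchd5 was higher in all of them, at 1.26 (SE 0.57, edgeR adjusted p = 1), with under 11 CPM in each. In all, 5 members were lower and 1 was higher without overlap, where 6.02% and 5.39% of all genes were.

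Within Tnnt2high cells the signs ran the other way. No member was called (0 of 31, and 0% of all genes by edgeR), 1 was higher and 0 lower at an unadjusted p under 0.05 (2.17% and 3.13% of all genes). By DESeq2 there were 0 called members, with 0.00592% of genes lower and 0.0237% higher. The log2 fold change was positive in 28 of 31 members, with a median of 0.21, against a median near 0 for all genes, of which 50.4% were negative. These differences also ran with length, at a median of 0.27 for all genes up to 1000 bases (0.36 for members), 0.17 up to 2000 (0.20 for members) and -0.18 above 6000 bases. With the length and GC correction described below the median of the members was 0.14 and 8 were negative. Chchd2 had 381, 473, 115 and 305 CPM in Glut1 transgenic Tnnt2high, against 169 and 106 CPM in WT Tnnt2high libraries. Replicate 3 of the transgenic group lay among the WT libraries, and the difference was 1.22 on the log2 scale (SE 0.47, edgeR adjusted p = 0.899). Tomm6 was higher in all 4 Glut1 transgenic than in both WT Tnnt2high libraries, at 0.35 on the log2 scale (SE 0.18, edgeR adjusted p = 0.899), and Timm8b overlapped, at 0.40 on the log2 scale (SE 0.25, edgeR adjusted p = 0.905). Without overlap, 2 members were higher and 0 lower, where 5.9% and 6.12% of all genes were. Both genotype comparisons use the libraries of the population comparisons, so that their signs are not separate evidence.

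Most members are short genes, and in these libraries the population difference ran with transcript length. Over all tested genes of Glut1 transgenic hearts, the median log2 fold change of Tnnt2low over Tnnt2high cells was -0.78 for genes whose longest coding transcript had up to 1000 bases, -0.43 for those up to 2000, -0.13 up to 3000, 0.07 up to 4000, 0.26 up to 6000 and 0.46 above. Of the members, 7 fell in the first class, with a median of -0.79, and 13 in the second, with a median of -0.59. In the shortest class the members thus lay at the median of all genes of their length. The 11 longer members had medians of -0.34 (5 members up to 3000 bases), -0.78 (2 members up to 4000, Timm10b and Chchd4), -0.17 (3 members up to 6000) and -0.63 (1 member above, Timm17a), each below the median of all genes in its class. This rests on the longest transcript. By the median coding transcript Timm10b (600 bases), Timm17a (636), Timm22 (746), Timm9 (836), Timm17b (1410), Tomm20 (2680) and Tomm40l (2753) would fall in shorter classes. Timm21, Tomm34, Chchd4 and Tomm70a would stay in theirs. Class medians of all genes on that scale were not computed. In WT hearts the medians of all genes ran the same way, at -0.37 in the shortest class and 0.22 in the longest.

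**Figure D3:**
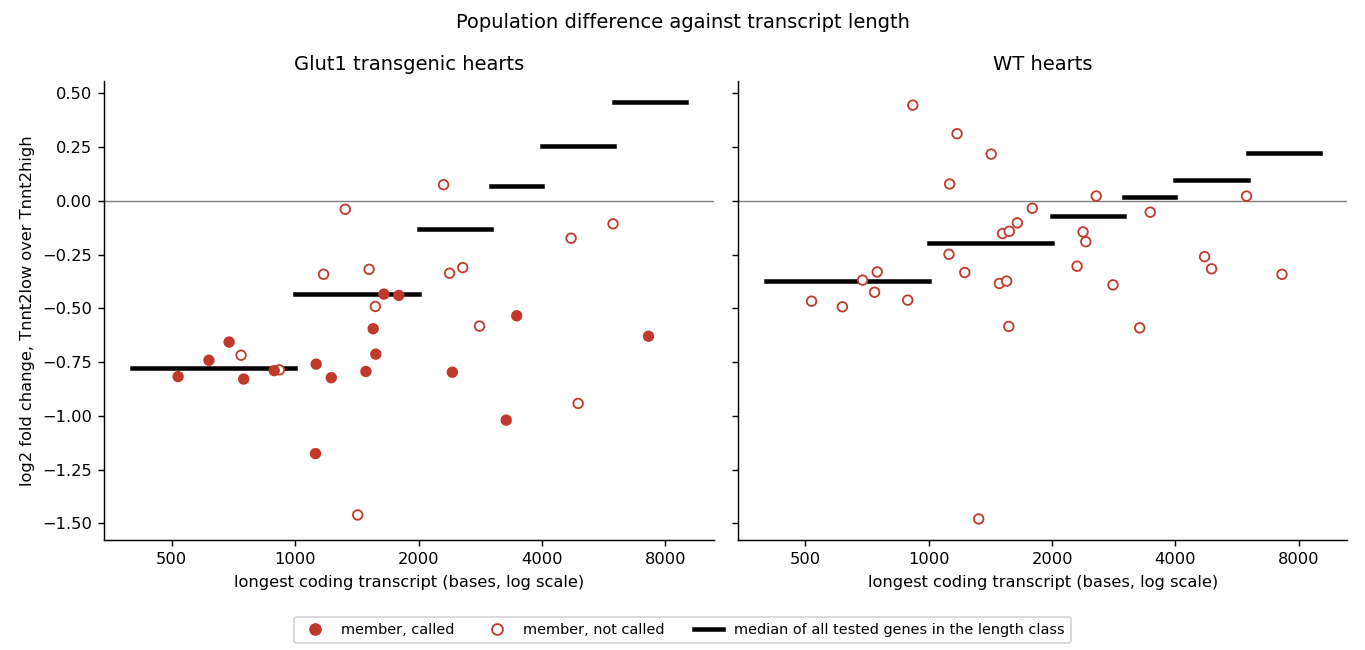
Log2 fold change of Tnnt2low over Tnnt2high cells against the longest coding transcript of each member in bases, on a log axis, for Glut1 transgenic hearts on the left and WT hearts on the right, with black bars for the median of all tested genes in each length class. In Glut1 transgenic hearts the bars climb from -0.78 to 0.46, and most members up to 2000 bases lie near them.

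With a correction per library for length and GC content, fitted over 12187 genes, 2 members remained called in Glut1 transgenic hearts, where 0.792% of all genes were called lower. The median of the members was then -0.22. The 2 were Timm10b (-1.06, edgeR adjusted p = 0.0223) and Timm17a (-0.95, edgeR adjusted p = 0.0442). The longest coding transcripts of Timm10b and Timm17a have 3273 and 7280 bases but their median coding transcripts 600 and 636 bases, so the correction treated both as long genes. Among the 17, the sign changed for Chchd1 (0.05), Timm10 (0.08) and Timm8b (0.016), none of which was then called. A lost call was not always a smaller difference: Chchd4 had -0.59 (edgeR adjusted p = 0.105) with the correction, against -0.53 without it. With the median length of a gene's coding transcripts in place of the longest, 4 members were called, where 3.46% of all genes were called lower, and their median was -0.41. These were Timm10b (-0.65, edgeR adjusted p = 0.0283), Chchd10 (-0.53, edgeR adjusted p = 0.0136), Tomm6 (-0.49, edgeR adjusted p = 0.0449) and Chchd4 (-0.69, edgeR adjusted p = 0.0324). With the heart as a block beside the first correction, 3 members were called, namely Timm10b, Timm17a and Chchd10, where 2.11% of all genes were called lower. Timm10b was thus the member called in each of these fits.

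**Figure D4:**
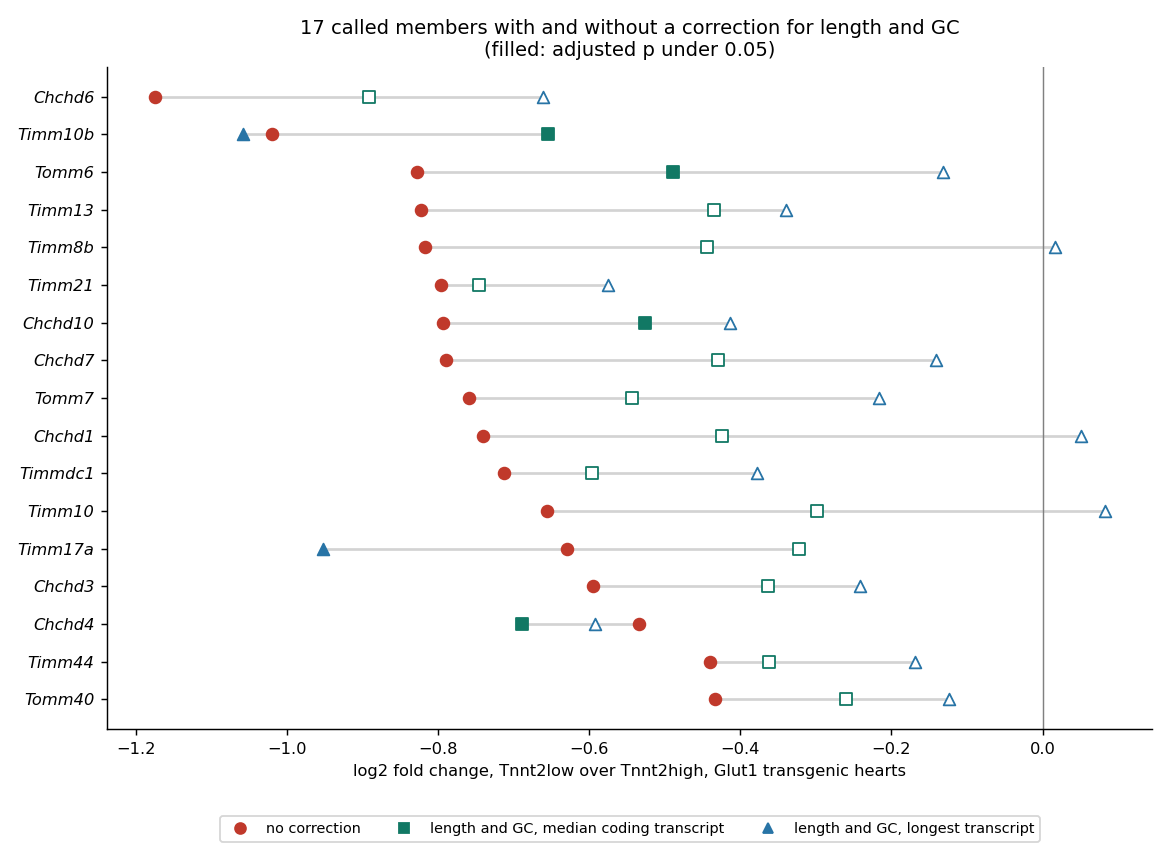
Log2 fold change of Tnnt2low over Tnnt2high cells in Glut1 transgenic hearts for the 17 called members, with no correction (circles), with the length and GC correction from the median coding transcript (squares) and from the longest (triangles), filled at an edgeR adjusted p under 0.05. All circles are filled, against 4 squares and 2 triangles.

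A property of whole libraries differed between the groups, as the members did. For each read in a gene, 0.886 to 1.07 reads lay outside every exon in Glut1 transgenic Tnnt2low, against 2.26 to 2.63 in Glut1 transgenic Tnnt2high libraries. In WT libraries the values were 1.13 and 1.495 in Tnnt2low, against 1.83 and 1.51 in Tnnt2high cells. The median deviation of the members from their own means was -0.47, -0.25, -0.35 and -0.12 on the log2 scale in Glut1 transgenic Tnnt2low, against 0.32, 0.44, 0.12 and 0.38 in Glut1 transgenic Tnnt2high libraries. Within the Glut1 transgenic groups the link was uneven. Tnnt2low replicate 1 had the most reads outside exons (1.07) and the lowest deviation (-0.47). In Tnnt2high, replicate 2 had the most (2.63) and the highest deviation (0.44), yet replicate 4 had the fewest (2.26) and 0.38. WT Tnnt2high replicate 2, the WT library of that population with the fewest reads outside exons, was also the one whose members were not raised. The part of this property in the results was not tested.

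The number of called members changed with the libraries used. Leaving out 1 library at a time gave 8 to 17 called members, and 7 were called in each of the 12 fits, namely Chchd10, Chchd3, Chchd6, Timm10b, Timm13, Tomm6 and Tomm7. The count was 8 without Glut1 transgenic Tnnt2low replicate 1, 11 without replicate 2 and 10 without replicate 3 of that group. It was 9 without either replicate 1 or replicate 2 of Glut1 transgenic Tnnt2high cells. The share of all genes called in these fits was not computed, so the change cannot be read as particular to the members. Chchd4, the weakest call, was lost on leaving out any of 11 of the 12 libraries and Timm21 on leaving out any of 7, while the median stayed between -0.71 and -0.53.

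Members also differed in how closely they followed each other. Across the 12 libraries the correlation of a member with the median of the others was 0.96 for Timm13 and for Chchd10, 0.93 for Chchd3 and for Timm10b, and 0.91 for Tomm6. At the other end stood Tomm34 (0.10), Timm8a1 (0.15), Tomm20 (0.19) and Tomm70a (0.23). Group means were not removed, so these correlations include the differences between groups given above. The 12 points also share hearts and library properties, so the correlations are descriptions only. Tomm70a and Tomm20 thus had like correlations but opposite spreads, with a pooled SD between replicates of 0.10 on the log2 scale for Tomm70a and 1.115 for Tomm20, against a median of 0.37 over all tested genes. Timm44 (0.14), Tomm40 (0.15), Chchd3 (0.17) and Chchd10 (0.17) were also tight, whereas Chchd2 had 0.72 and Timm8a1 had 2.49.

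**Figure D5:**
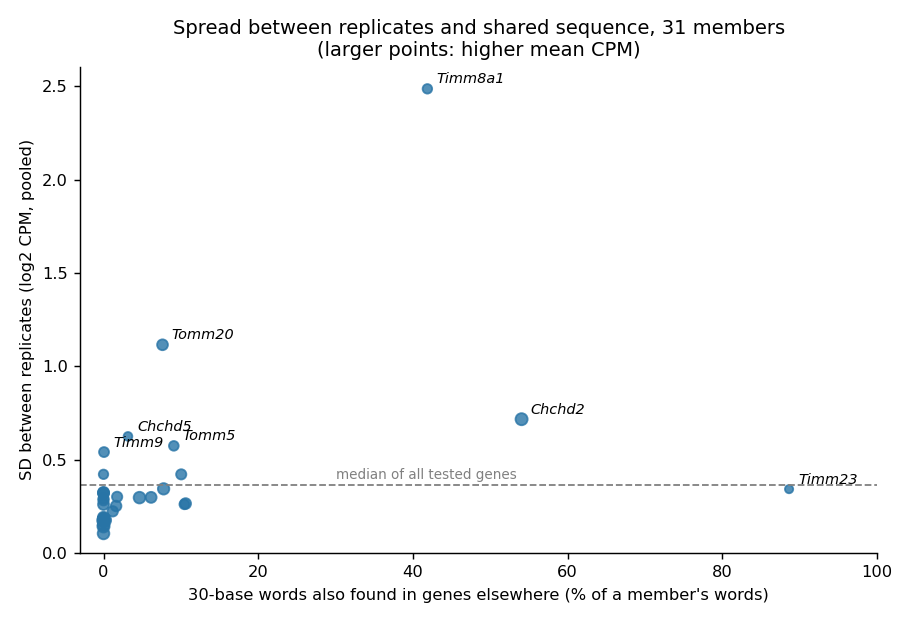
Pooled SD between replicates (log2 CPM) of the 31 tested members against the share of their 30-base words that also occur in genes elsewhere, with larger points for a higher mean CPM and a dashed line at the median of all tested genes, 0.37. Timm8a1 and Chchd2 are high on both axes, Tomm20 has a wide spread at a share of 7.63%, and Timm23 has the largest share with a spread under the dashed line.

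Sequence shared with any other gene made up 5% or more of the words of 16 of the 31 tested members, of which 8 were called. Of the 15 members under 5%, 9 were called. Genes elsewhere reached 5% in 10 members, of which 3 were called. These were Timm23, Chchd2, Timm8a1, Tomm22, Timm17b, Timm21, Tomm5, Timmdc1, Tomm20 and Timm17a, and their counts are uncertain. The other 6 reached 5% through genes that overlap them, namely Tomm6 (86.4%), Tomm40l (65.3%), Timm10b (20.5%), Tomm40 (12.3%), Timm8b (10.6%) and Chchd10 (8.77%), and are uncertain as well, since the strand setting is not known here.

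Levels between genes were compared per kilobase of the longest coding transcript. On this scale Chchd10 was the highest member in every group, at 394 CPM per kilobase in Glut1 transgenic Tnnt2low, 682 in Glut1 transgenic Tnnt2high, 459 in WT Tnnt2low and 599 in WT Tnnt2high cells. Chchd3 had 262, 396, 264 and 342 CPM per kilobase in the same order. The channel Tomm40 had 65.99, 89.1, 70.4 and 75.6, and its receptor Tomm70a had 21.95, 23.6, 22.6 and 22.3. The relay enzyme Chchd4 was low, with 8.36, 12.1, 10.1 and 10.48 CPM per kilobase. Chchd10 thus stood well above Chchd4, the enzyme of the relay, in each group.

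A list of 41 other genes, of which 40 were tested, moved in like numbers. It joins genes of the import pathway with MICOS genes and other twin CX9C proteins, which are not import machinery themselves. In Glut1 transgenic hearts 18 fell and 0 rose in Tnnt2low cells, where 8.33% and 8.42% of all genes did. Of the 40, 34 were negative, against 50.4% of all genes, and their median was -0.59. With the length and GC correction 6 of the 18 were still called, namely Cox17, Dnajc15, Dnajc19, Grpel1, Minos1 and Samm50, where 0.792% of all genes were called lower. By role, 4 of 7 genes of TIM23 and its motor fell, 3 of 5 of MICOS, 2 of 4 of the SAM complex that inserts barrel proteins into the outer membrane, 6 of 10 other twin CX9C proteins, and 0 of 6 presequence proteases. Romo1 (-1.10, edgeR adjusted p = 0.00198) and Dnajc15 (-1.13, edgeR adjusted p = 0.00221), which belong to TIM23 and its motor, fell most among their group's calls. With that correction Dnajc15 had a larger difference (-1.41, edgeR adjusted p = 0.00808) and Romo1 a smaller one that was not called (-0.34, edgeR adjusted p = 0.238). Hspa9, the mitochondrial Hsp70 that drives the motor, was not called (0.03, edgeR adjusted p = 0.847), and neither were Immt, the large MICOS subunit (-0.19, edgeR adjusted p = 0.231), and Hspd1, the matrix chaperonin (0.10, edgeR adjusted p = 0.555), of whose words 50.7% occur elsewhere. In WT hearts 0 of the 40 were called, 33 were negative and the median was -0.28.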

How the data were processed

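Counts of reads per gene came from 12 libraries. The authors trimmed single-end 50 bp reads below a Phred score of 20, aligned them to mm10 with HISAT2 and deposited raw HTSeq counts over the union of exons, not normalized. FastQC, HISAT2, HTSeq and DESeq2 are named in the submitters' processing notes, with versions and strand setting not given in the sources used here. Lines naming no gene (5 totals, 63.6% to 83.8% of records) stayed out. Members and gene lists were chosen with earlier results of these data known. Per-library values were given for members called in any comparison, the 3 members of smallest p per comparison and the defining members of each role, and the rest by counts and ranges.

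In R 4.3.3, edgeR 4.0.16 (TMM, filterByExpr on the 4 groups, quasi-likelihood test, Benjamini-Hochberg over 12252 genes, threshold 0.05) fitted all 12 libraries without covariates. Standard errors are the fold change over the root of F. Log CPM used a prior count of 2. Alternatives were other scalings, DESeq2 1.42.0, no filter, a robust fit, fewer libraries and each library left out. Further ones were a loess offset (span 0.3) for length and GC content and the replicate pair as a block. That pair is the heart in Glut1 transgenic libraries, whereas the WT pairs are replicate numbers that may share 1 heart. Libraries were paired by the labels, and paired libraries deviated together (r = 0.107 to 0.226 in Glut1 transgenic and 0.271 in WT hearts). With 2 to 4 libraries per group, counts of 4065306 to 9815069 reads limit precision mostly for genes under 10 CPM. Replicates differed by more than counting noise (chi-square per gene 13.4 to 26.5 over 14 pairs).

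Lengths, coordinates and 30-base words came from GENCODE vM21 transcripts, which matched 98.5% of genes, 670 through older symbols, and all 34 members. The words were searched in transcripts, not in the genome. Protein features were not analysed here. Figures used Python 3.11.15, pandas 2.3.3, numpy 2.4.6 and matplotlib 3.10.9.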

Additional observations from a re-analysis of the deposited data

Results flagged for a closer look

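In 62 sets of 4 libraries (31 members in the 2 Glut1 transgenic groups), 7 values stood far from the other 3 by Dixon's test, where chance gives about 1 in 20. Chchd1 stood apart in both populations of heart 8, with 62.9 CPM in Glut1 transgenic Tnnt2low replicate 4 (the others 37.6 to 39.1 CPM) and 51.0 CPM in Glut1 transgenic Tnnt2high replicate 4 (the others 78.9 to 84.1 CPM). Timm8a1 stood apart at 15.9 CPM in Glut1 transgenic Tnnt2low replicate 2 (the others 0.256 to 2.03 CPM) and at 47.0 CPM in Glut1 transgenic Tnnt2high replicate 4 (the others 0.404 to 3.01 CPM). Chchd6 reached 9.88 CPM in Glut1 transgenic Tnnt2low replicate 2, where the others had 6.73 to 6.79 CPM. Tomm7 reached 253.6 CPM in Glut1 transgenic Tnnt2high replicate 2, where the others had 129 to 143.5 CPM. Timm8b reached 84.6 CPM in Glut1 transgenic Tnnt2high replicate 1, where the others had 64.5 to 67.9 CPM. Tomm7 and Chchd6 were called in every fit with 1 library left out, while Chchd1 and Timm8b were not.

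Timm23 was lower in Tnnt2low cells of all 4 Glut1 transgenic hearts and higher in Tnnt2low cells of both WT pairs. The difference between the genotypes was -0.65 on the log2 scale and was not past the threshold (edgeR adjusted p = 0.975), at 2.68 to 6.41 CPM in all 12 libraries.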

How the results depend on the processing

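In Glut1 transgenic hearts the count of 17 called members, all lower, kept its direction in each alternative. It was 2 with the length and GC offset, 3 with the replicate block and that offset, and 4 with the offset on the median coding transcript, which was chosen after seeing the data. The medians were -0.22, -0.21 and -0.41, where 0.792%, 2.11% and 3.46% of all genes were called lower. The replicate block alone gave 18, losing Timm17a and gaining Timm22 and Tomm22. With it 9.25% of all genes were called lower, against 8.33% in the main fit. DESeq2 gave 19, where 11.5% of all genes were called lower, and no filter gave 16. For no filter and for the fits without 1 library the share of all genes was not computed. Without 1 library the count ran from 8 to 17 and the median from -0.71 to -0.53. The WT median was -0.088 with the offset, -0.080 with block and offset, and -0.45 to -0.074 without 1 library. The median of Glut1 transgenic against WT was 0.087 to 0.39 without 1 library in Tnnt2high and -0.22 to -0.01 in Tnnt2low cells, and that of the interaction -0.48 to -0.23. With the offset these medians were 0.14, -0.027 and -0.21. In these 3 comparisons and in WT hearts 0 members were called in each alternative. Alone, the block changed no other call of a member. Beside the offset it gained the call of Chchd10 (edgeR adjusted p = 0.0319, against 0.0629 with the offset alone). Signs turned for Chchd1 (0.050 with the offset, 0.012 with block and offset), Chchd5 (0.41, 0.42 and, on the median transcript, 0.17, and -0.33 to 0.21 without 1 library), Timm10 (0.083 and 0.054), Timm23 (0.14 and 0.13), Timm50 (0.039 and 0.055), Timm8b (0.016 with the offset), Timm8a1 (-3.60 to 1.28 without 1 library, the last without Glut1 transgenic Tnnt2high replicate 4) and Tomm34 (-0.054 without Glut1 transgenic Tnnt2high replicate 3, to 0.16). Apart from the construction of the offsets, the cause was not tested. Depth limits members under 10 CPM, such as Timm23 and Chchd5. WT libraries that may come from 1 heart limit each comparison with WT, and a p that misses the threshold there does not show that levels were alike.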
